A study of Homo sapiens with 2 samples.

Results

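A set of 9 genes known as markers of liver cancer stem cells was followed in MHCC97H, a human hepatocellular carcinoma line, with and without knockdown of GP73. They were ANPEP, PROM1, EPCAM, CD44, CD24, THY1, ALDH1A1, SOX9 and SOX4, and a row of the array belonged to a marker when the platform annotation gave it that 1 gene symbol. All 9 had such a row, 10 rows in all of the 70523 on the array, and they are 9 of the 22413 genes that such rows name. GP73, the product of GOLM1, sits in the membrane of the Golgi and is known from diseased liver and liver cancer, where it is abundant. The series held 2 Affymetrix arrays. The first was of MHCC97H control cells, which the labels describe as high in GP73, and the second of MHCC97H cells with GP73 knocked down. Both cultures were grown in DMEM with 10% FBS. The sample titles carry the abbreviations shv and shGP73, and the sources used here do not say whether each line was a pool or 1 clone. Each condition was measured once, so no value has a replicate error and no p-value is given between the conditions. The study's stated aim was to learn how GP73 works with downstream components in liver cancer cell growth, and the comparison described here asks how the marker genes differed between the 2 arrays.

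Liver cancers are known to contain cells that renew themselves, resist drugs and found new tumours, and such cells are enriched by sorting on surface proteins. The markers fall into adhesion and surface proteins (CD44, EPCAM, CD24, PROM1 and THY1), surface or cytosolic enzymes (ANPEP and ALDH1A1) and transcription factors of liver and bile duct progenitors (SOX9 and SOX4). Each of them is also expressed outside stem cells, and an array of a whole culture gives the mean RNA level over all its cells. A change in the number of marker-positive cells and a change in RNA per cell cannot be told apart in such data.

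The values were log2 signals as deposited, and differences are the knockdown array minus the control array. A gene is called measured when the larger of its 2 signals was at least 5.84, the median of that quantity over genes, which left 11207 genes. The median over all rows was 4.72 in control and 4.80 in knockdown cells, and the 95th percentiles were 8.66 and 8.60. GOLM1, the targeted gene, had signals of 9.13 and 7.46, a difference of -1.67, the lowest of all measured genes in the values as deposited. Of 10 listed markers of liver cells 8 had a row and 5 were measured. Of these 1 was higher and 4 were lower, against 50.5% lower among all measured genes. The keratins KRT8 and KRT18 had control signals of 10.9 each, whereas albumin (ALB), transthyretin (TTR) and alpha-fetoprotein (AFP), which define hepatocytes and fetal liver, were below the floor in both arrays, at 4.35, 4.18 and 2.56 in control cells. The apolipoprotein genes APOA1 and APOB were close to the floor, at 5.86 and 6.27 in control cells. APOB stood at 5.80 after knockdown, a difference of -0.47. This was below the floor, so APOB counted through its control signal alone. The SD of the difference over all measured genes was 0.262, and between rows of the same gene, in 100 genes with 2 rows above the floor, the SD was 0.133. This latter SD covers measurement within these arrays and not the variation between cultures, and it is too small if such rows share probes, which was not checked.

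Of the 9 markers, 6 were measured, and 1 of these differed by 1.5-fold or more. ANPEP was 1.64-fold higher in the knockdown array, SOX4 was 1.32-fold lower and CD24 was 1.26-fold lower. ALDH1A1, SOX9 and the brighter row of CD44 differed by 1.13-fold, 1.04-fold and 1.01-fold. PROM1, EPCAM and THY1 were below the floor in both arrays. At 1.5-fold, 1 of 6 measured markers was higher, against 1.08% of all measured genes, and 0 of 6 were lower, against 1.55%. None was 2-fold different in either direction, against 0.294% of all measured genes. By sign alone 2 of the 6 were higher, against 47.8% of measured genes, and 4 were lower, against 50.5%, but SOX9 among the former and CD44 among the latter changed sign under another scaling, and CD24 counted only through its higher control signal. The median difference of the 6 was -0.095, beside -0.00625 over all measured genes. The measured markers thus lay on both sides of 0. The set was chosen with earlier results of these data known, so its shares beside those of all genes are a description only.

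**Figure D1:**
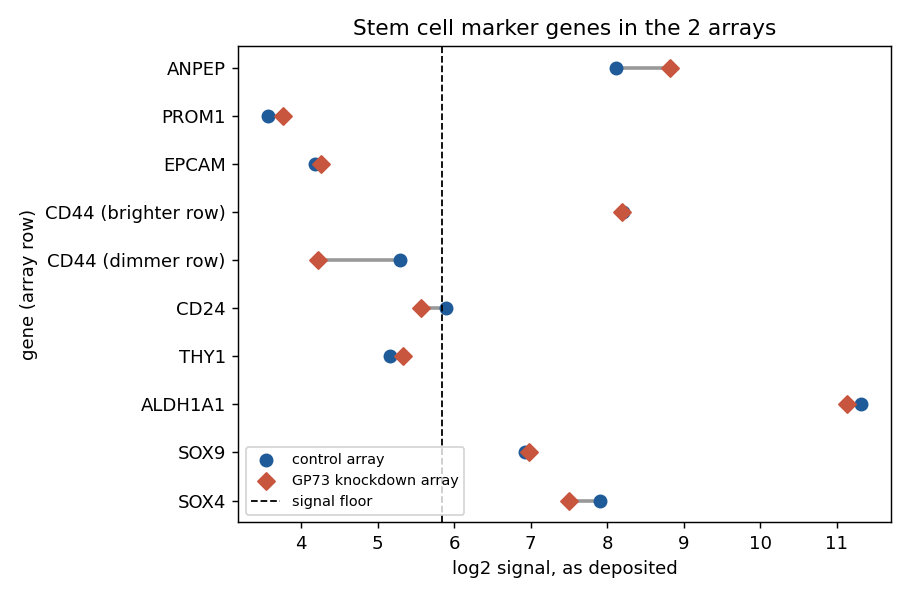
Log2 signal of each of the 10 array rows of the 9 marker genes (horizontal axis) in the control array (circles) and the GP73 knockdown array (diamonds), 1 array each, with the floor of 5.84 as a dashed line. ANPEP lies to the right and SOX4 and CD24 to the left in the knockdown array, while PROM1, EPCAM and THY1 lie below the floor in both.

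ANPEP and SOX4 had the largest differences of the measured markers in each direction, and their promoter sequences are shown for that reason. The sequences are from RefSeq, build GRCh38.p14, and cover the 250 bases before an annotated start, 5' to 3' on the strand of the gene. ANPEP has 2 annotated starts, and its gene is known to be transcribed from an upstream promoter in myeloid cells and fibroblasts and from a promoter near the coding region in epithelial cells. The upstream ANPEP window is chr15:89814853-89815102 and the downstream one chr15:89806629-89806878, both on the minus strand. The SOX4 window is chr6:21593501-21593750 on the plus strand. Capitals mark the GC box GGGCGG in the upstream ANPEP window and CCAAT, or its reverse complement ATTGG, in the SOX4 window.
ANPEP upstream: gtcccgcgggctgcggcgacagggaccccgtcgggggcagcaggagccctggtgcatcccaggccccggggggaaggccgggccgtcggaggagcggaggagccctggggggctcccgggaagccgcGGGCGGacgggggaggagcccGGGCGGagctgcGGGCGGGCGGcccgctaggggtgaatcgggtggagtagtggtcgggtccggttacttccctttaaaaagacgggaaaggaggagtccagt
ANPEP downstream: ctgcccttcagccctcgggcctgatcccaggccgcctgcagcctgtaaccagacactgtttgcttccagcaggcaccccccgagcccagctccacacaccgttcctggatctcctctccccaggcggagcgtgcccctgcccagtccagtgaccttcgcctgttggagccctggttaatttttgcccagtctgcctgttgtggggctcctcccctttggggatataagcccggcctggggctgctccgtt
SOX4: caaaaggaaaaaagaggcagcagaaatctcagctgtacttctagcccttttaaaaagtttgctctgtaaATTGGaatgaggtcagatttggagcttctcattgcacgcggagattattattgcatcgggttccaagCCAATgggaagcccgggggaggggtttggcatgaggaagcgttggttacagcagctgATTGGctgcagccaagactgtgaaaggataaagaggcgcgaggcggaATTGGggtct

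The upstream ANPEP window held 4 GC boxes, of which the last 2 overlap, and 74.0% G and C. The downstream ANPEP window held no match to any motif searched and had 64.4% G and C. The SOX4 window held 4 CCAAT motifs, 1 forward and 3 reverse, and 48.8% G and C. Over all 35116 promoter windows of the same length the median G and C content was 58.0%, 42.6% of windows held a GC box and 32.0% held CCAAT on either strand. The other motifs searched on both strands were TATAAA, the AP-1 motif TGANTCA, the SOX motif AACAAAG and the TCF motif ATCAAAG, which 10.7%, 6.57%, 4.50% and 2.26% of all windows held. Windows were found for 6 of the 9 markers, 12 windows in all, and TATAAA occurred in 0 of these, GGGCGG in 5, CCAAT in 4, and each of the others in 1. The array rows do not show which start was in use, and a match of letters is a description of the sequence only.

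ANPEP codes for CD13, an aminopeptidase of the cell surface that trims peptides and is known as a marker of slowly dividing liver cancer stem cells. Its log2 signal was 8.12 in control cells and 8.83 after knockdown, both well above the floor. The difference of 0.71 was rank 52 from the highest of the 11207 measured genes, and 1.06% of measured genes had a larger absolute difference. It was 5.33 times the SD between rows of the same gene. Among the signal decile of measured genes with similar mean signal, which also holds CD44, the median difference was -0.080 and the SD 0.272. By difference alone, the 3 measured genes nearest to ANPEP over the 2 arrays were the microRNA gene MIR4254 at 0.71, the metallothionein pseudogene MT1DP at 0.71 and ETV6, an ETS-family transcriptional repressor, at 0.71. The signals of ETV6 were 8.38 and 9.09, whereas MIR4254 and MT1DP lay under the floor before knockdown, at 5.27 and 5.21.

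ANPEP is also expressed by myeloid cells, so leukocyte markers stand beside it. Of 7 listed leukocyte markers 6 had a row and 2 were measured, CD68 at 0.49 and NKG7 at 0.47. Both were higher, against 47.8% of all measured genes. CD68, a lysosomal protein of macrophages that other cells also make, had signals of 9.25 and 9.74. NKG7, a granule protein of cytotoxic cells, lay just under the floor in control cells at 5.83 and stood at 6.30 after knockdown. NKG7 thus counted through its knockdown signal alone, and without a floor the median difference of the 6 was 0.21. PTPRC, the common leukocyte antigen, had signals of 2.34 and 2.42, and LYZ, the myeloid lysozyme, 2.76 and 2.79, all far below the floor. CD14, the monocyte coreceptor, stood at 4.79 and 4.71. Over the 6 the median signal was 4.70 in control cells and 4.83 after knockdown, and the part of such cells in the ANPEP value was not tested.

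Peptidases related to ANPEP were set beside it. Of 12 listed, 9 had a row and 7 were measured. Of these 1 was higher and 6 were lower in the knockdown array, against 50.5% lower among all measured genes. At least 1.5-fold different were 0 of the 7, against 2.63% of all measured genes. The median of the list was -0.077 as deposited, -0.014 after quantile normalisation and -0.00069 with the trend over signal removed. LTA4H, which makes leukotriene B4 and belongs to the same enzyme family, stood at -0.28, from 8.33 to 8.05. ERAP2 and ERAP1, which trim peptides for MHC class I, stood at -0.11 and -0.088, with ERAP2 close to the floor at 5.96 and 5.85. DPP4, a dipeptidyl peptidase of the cell surface, had signals of 8.59 and 8.51. Whether ANPEP differs from its relatives could not be tested with 1 array a group.

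ALDH1A1 oxidises retinaldehyde and other aldehydes and gives the enzyme activity by which stem-like cells are often sorted. Its log2 signal was 11.3 in control cells and 11.1 after knockdown. The difference of -0.18 was 1.31 times the SD between rows of the same gene in size, and 50.7% of measured genes had a larger absolute difference. Its family was compared next. Of 18 other aldehyde dehydrogenases 17 had a row and 12 were measured, with a median of -0.12. Of these 3 were higher and 9 were lower, against 50.5% lower among all measured genes. At 1.5-fold or more were 0 of the 12, against 2.63% of all measured genes. ALDH7A1, which acts in lysine breakdown, was the lowest at -0.55, from 7.03 to 6.47. ALDH6A1, of valine and pyrimidine breakdown, stood at -0.41, from 6.05 to 5.65. The latter was below the floor, so ALDH6A1 counted through its control signal alone. ALDH3A2, the fatty aldehyde dehydrogenase, stood at -0.34 and ALDH9A1, an enzyme of carnitine synthesis, at -0.29. Over all measured genes the median was between -0.080 and -0.072 in the 3 brightest signal deciles. ALDH3A2 lay in these deciles by mean signal, whereas ALDH7A1, ALDH6A1 and ALDH9A1 lay in dimmer ones. With the trend over signal removed the median of the family was -0.11. The part of signal level in these values was not tested. The closest relatives of ALDH1A1 in retinoic acid synthesis, ALDH1A2 and ALDH1A3, were below the floor in both arrays, at 4.25 and 4.50 and at 5.44 and 5.48. They were looked up outside the rule for named genes.

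CD44 is the receptor for hyaluronan and is made in many splice forms, of which the variant forms are linked to stem-like carcinoma cells. It was the marker with 2 rows, and these gave different values. The brighter row, TC11000332.hg.1, had signals of 8.21 and 8.20, a difference of -0.016, smaller than that of 94.6% of measured genes. The dimmer row, TC11000333.hg.1, had signals of 5.30 and 4.23, a difference of -1.07, with both values below the floor. The mean over both rows gave -0.54 for CD44, so its value depends on which row stands for the gene. The annotation does not say which exons either row covers, and the splice forms were not analysed here. The transcript CD44-DT, which starts beside CD44 on the opposite strand, was below the floor, at 3.70 and 3.67.

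EPCAM is an epithelial adhesion protein of the fetal liver whose cleaved tail acts in the nucleus. Its signals were 4.19 in control cells and 4.26 after knockdown, both below the floor, so no size is given to its difference. PROM1, the pentaspan membrane protein CD133, had 3.57 and 3.77, and THY1, the GPI-anchored glycoprotein CD90, had 5.17 and 5.34. A signal below the floor does not show that a transcript is absent. THY1 is also made by fibroblasts, and of 7 listed fibroblast and stellate cell markers 6 had a row and 1 was measured, COL1A1, at 5.92 and 6.09. DCN, the matrix proteoglycan decorin, stood at 2.45 and 2.65. The median signal of the 6 was 4.67 in control cells and 4.97 after knockdown. Of 6 endothelial markers 3 were measured, all with differences below 0, against 50.5% lower among all measured genes. They were PECAM1 at -0.72, from 5.98 to 5.26, which is below the floor, CLDN5 at -0.079 and KDR at -0.062. PECAM1 thus counted through its control signal alone. CDH5, VWF and TEK were below the floor in both arrays, with differences above 0. Without a floor the median difference of the 6 was 0.023. The 6 had median signals of 5.59 and 5.31. The part of such cells in these values was not tested.

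CD24 is a small, heavily glycosylated surface protein that binds P-selectin and a receptor of macrophages. Its signals were 5.90 in control cells and 5.57 after knockdown, a difference of -0.33, or 2.50 times the SD between rows of the same gene in size. The control value was 0.056 above the floor and the knockdown value 0.28 below it, so CD24 counted as measured only through its control signal. In the signal decile of measured genes with the lowest mean signal, which holds CD24, the median difference was 0.15 and the SD 0.283. The row, TC0Y000182.hg.1, carries the code of the Y chromosome in its name, whereas RefSeq places CD24 on chromosome 6. CD24 is known to have near-identical pseudogene copies, and the split of signal between these copies and the gene is uncertain.

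The list of genes that act with CD44 and EPCAM holds hyaluronan enzymes, splicing factors, cytoskeletal linkers, membrane partners and proteases that cut these receptors. Of 21 genes 18 had a row and 16 were measured, with a median of -0.14. Of these 6 were higher and 10 were lower, against 50.5% lower among all measured genes. At 1.5-fold or more were 0 of the 16, against 2.63% of all measured genes. PSENEN, a subunit of the gamma-secretase that releases the tails of CD44 and EPCAM, stood at -0.46, from 9.50 to 9.03. ADAM17, a protease that sheds surface proteins, stood at -0.36, from 8.07 to 7.72. RDX, the linker radixin that ties CD44 to actin, stood at -0.33, from 8.70 to 8.38. CLDN7, a claudin that binds EPCAM, stood at -0.24, from 5.91 to 5.67. The latter was below the floor, so CLDN7 counted through its control signal alone. The median difference was -0.072 in the brightest decile of measured genes and 0.15 in the dimmest, which holds CLDN7 by mean signal. With the trend over signal removed the median of the list was -0.10. The part of signal level in these values was not tested.

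SOX4 and SOX9 are transcription factors with an HMG box, and both are known from the bile duct and from liver progenitor cells. SOX4 is also known as a target of TGF-beta signalling. The log2 signal of SOX4 was 7.91 in control cells and 7.51 after knockdown. Its difference of -0.40 was rank 729 from the lowest of all measured genes, and 10.7% of measured genes had a larger absolute difference. It was 3.02 times the SD between rows of the same gene in size. SOX9 had signals of 6.93 and 6.98, a difference of 0.050, which is 0.374 times that SD and below the difference of 84.9% of measured genes in size. The 2 rows of the antisense transcript SOX9-AS1 were below the floor in both arrays, at 4.46 and 4.26 and at 3.93 and 4.34.

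**Figure D2:**
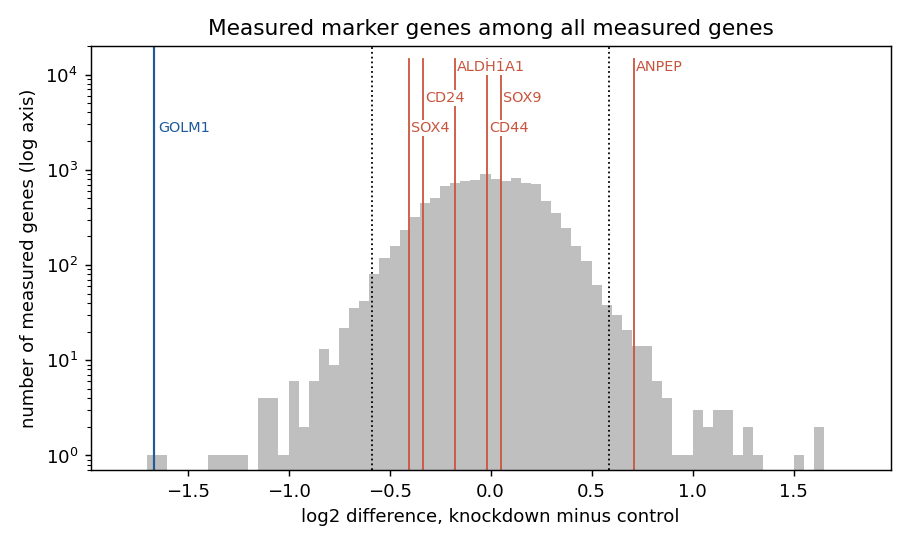
Number of measured genes (vertical log axis) by log2 difference, knockdown minus control (horizontal axis, bins of 0.05), with the 6 measured markers as red lines, GOLM1 as a blue line and 1.5-fold as dotted lines. ANPEP at 0.71 is the only measured marker outside the dotted lines; GOLM1 at -1.67 lies at the left end.

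The other SOX genes had little signal. Of 17 listed 6 were measured, 5 higher, against 47.8% of all measured genes, and 1 lower. Their median was 0.14 and 0 of the 6 were at 1.5-fold or more, against 2.63% of all measured genes. SOX18, a factor of blood and lymph vessels, stood at 0.40, from 5.73 to 6.13, and SOX10, a factor of the neural crest, at 0.30, from 5.75 to 6.05. Both lay under the floor before knockdown, so that their knockdown signals alone made them count. SOX12, which belongs to the same SOXC group as SOX4, stood at 0.17, from 5.96 to 6.13, and SOX17, a factor of the endoderm, at 0.11. In the dimmest signal decile of measured genes, which holds SOX18 and SOX10 by mean signal, the median difference was 0.15.

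Genes of the Notch pathway, which is known to act on SOX9 and on bile duct fate, were measured for 15 of 21, with 11 higher, against 47.8% of all measured genes, 4 lower and a median of 0.15. NOTCH3, NOTCH4 and MFNG lay under the floor before knockdown and counted through their knockdown signals alone, and HEY1 counted through its control signal alone. MAML2 and MAML1, coactivators of the Notch complex, stood at 0.51, from 6.04 to 6.55, and at 0.33, from 6.79 to 7.12. HES4 stood at 0.24, from 6.88 to 7.12, while HES1, the best known Notch target, stood at -0.35, from 7.73 to 7.38. The named coactivators and HES1 therefore differed in opposite directions. Raising the floor to the 75th percentile brought the median of the list to 0.029.

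Among the other reported surface markers and efflux pumps of liver cancer stem cells 7 of 13 were measured, with a median of 0.0021. Of these 4 were higher, against 47.8% of all measured genes, and 3 were lower, against 50.5%. CD47, the surface protein that restrains uptake by macrophages, stood at -0.37, from 6.99 to 6.63. PROCR, the protein C receptor, stood at 0.30, from 9.18 to 9.48. ABCB1, a drug efflux pump, stood at -0.29, from 6.12 to 5.83, and DLK1, a surface protein of fetal liver cells, at 0.23, from 5.73 to 5.96, so that each was below the floor in 1 array. LGR5, KIT, CD34, CXCR4 and CACNA2D1 were below the floor in both. The measured members of this list were thus mixed in sign, and the median changed sign when the arrays were centred on their medians, to -0.077.

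The fetal liver and bile duct list held 6 measured genes of 11, with a median of 0.053. Of these 3 were higher, against 47.8% of all measured genes, and 3 were lower, against 50.5%. PEG10, an imprinted gene of retrotransposon origin that is often raised in liver cancer, was 1.53-fold higher, from 6.48 to 7.10. KRT7, a keratin of bile ducts, stood at 0.18, and SPP1, the secreted CD44 ligand osteopontin, at 0.13, from 10.6 to 10.7. IGF2BP1, a fetal RNA-binding protein, stood at -0.11. AFP, GPC3, LIN28B and SALL4 were below the floor in both arrays. The median of this list also changed sign under centring, to -0.026.

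Of 10 pluripotency and self-renewal factors 7 were measured, with a median of 0.086. Of these 4 were higher, against 47.8% of all measured genes, and 3 were lower, against 50.5%. KLF4, a zinc finger factor, stood at 0.18, MYC at 0.16, ZIC2 at 0.14 and the T-box factor TBX3 at -0.13. NANOG and POU5F1, the core pluripotency factors, were below the floor in both arrays, at 4.71 and 4.78 and at 5.17 and 5.22. In the 8 related lists, cell type markers left aside, PEG10 was the single measured gene at 1.5-fold or more. These lists held 7, 6, 7, 6, 12, 7, 16 and 15 measured genes, with 2 genes in more than 1 list. Over all measured genes the share was 2.63% in either direction. Among the cell type markers PECAM1, at -0.72, was also past 1.5-fold.

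**Figure D3:**
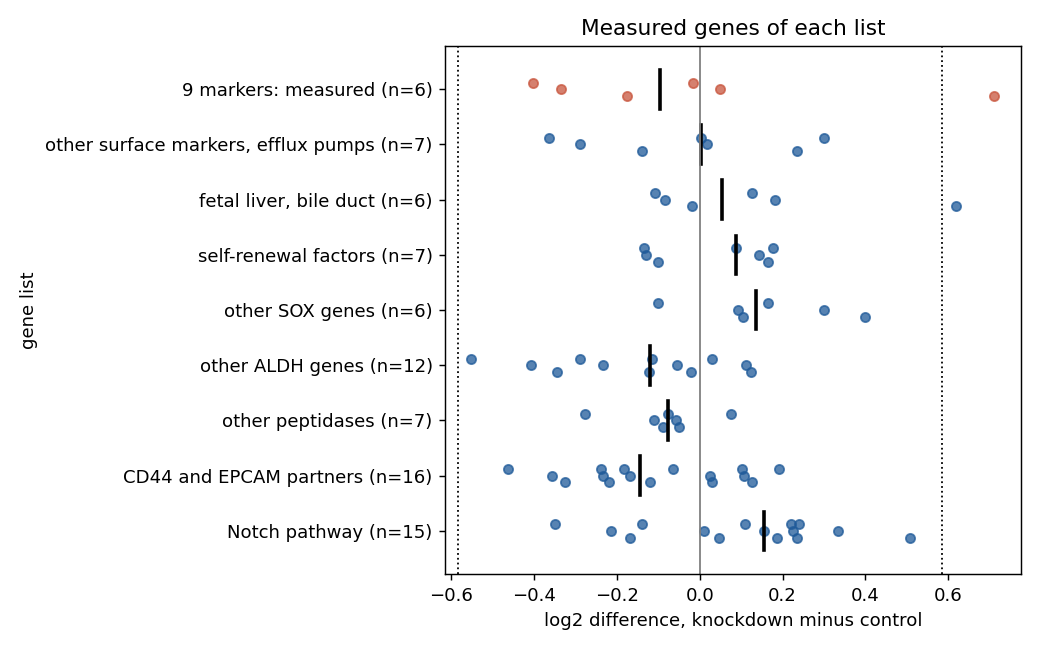
Log2 difference, knockdown minus control (horizontal axis), of each measured gene of the 9 markers (red) and of 8 related gene lists (blue), with the median of each list as a black bar and 1.5-fold as dotted lines. ANPEP at 0.71 and PEG10 at 0.62 lie outside the dotted lines, and every list has values on both sides of 0.

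The differences of the markers were recomputed under other scalings of the arrays. ANPEP lay between 0.63 and 0.79, SOX4 between -0.48 and -0.33, CD24 between -0.43 and -0.33 and ALDH1A1 between -0.25 and -0.12. These 4 kept their sign under each scaling tried. EPCAM changed sign under centring, quantile normalisation and removal of the trend over signal. The brighter row of CD44 changed sign under the last 2 of these, and SOX9 under centring, at -0.029. No direction is given for these 3 genes.

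**Figure D4:**
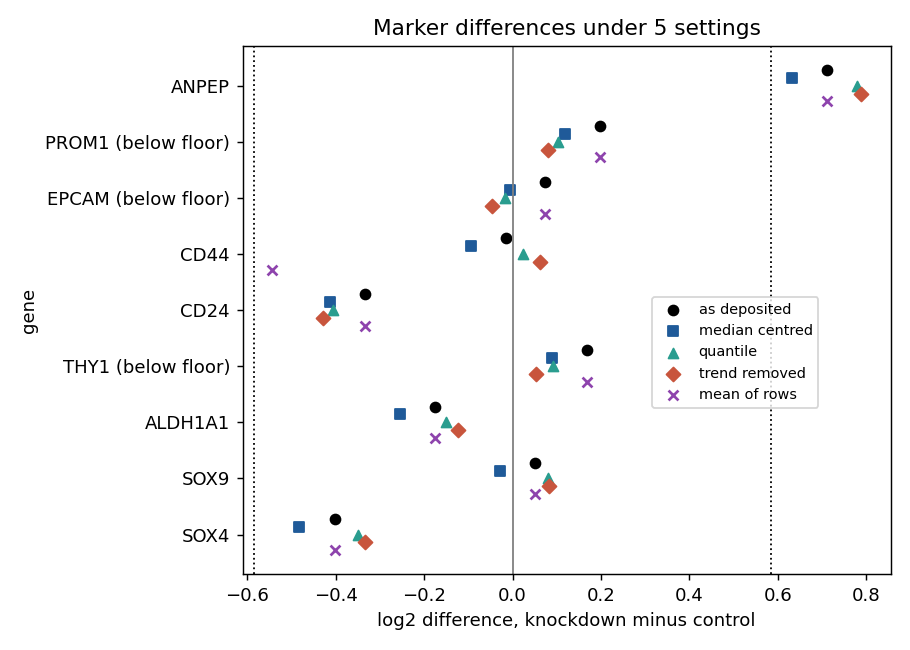
Log2 difference, knockdown minus control (horizontal axis), of each marker under 5 settings: as deposited, arrays centred on their medians, quantile normalisation, trend over signal removed, and all rows of a gene averaged. ANPEP stays right of 0.63, SOX4 and CD24 stay left of -0.33, and CD44 moves to -0.54 when its 2 rows are averaged.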

How the data were processed

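Total RNA of 2 MHCC97H cultures, 100 ng each, was labelled with biotin by the Affymetrix whole-transcript method and put on 1 array per condition, per the labels' protocols. The deposited table held log2 signals that, per the submitters' processing notes, came from Affymetrix Expression Console. Not given in the sources used here are software version, normalisation and genome build. The log2 scale was read from the range of values, 0.33 to 13.3. The platform annotation gave 1 symbol for 23784 rows, and 23780 of these were matched to RefSeq (GRCh38.p14). Where a gene had several rows (529 genes), its brightest row by mean signal was used. The floor was the 50th percentile of the higher signal over 22413 genes. With 1 array per group no test was made, and the number of arrays limits the precision. The text names all markers, GOLM1, up to 4 measured genes a list by largest absolute difference, any measured list gene at 1.5-fold or more, and the 3 genes nearest to ANPEP. Other genes named beside these were looked up after their values were seen. The members and lists were chosen with earlier results of these data known. Alternatives were median centring, quantile normalisation, removing a lowess trend (fraction 0.3), other floors, means over rows or lists, and other fold thresholds. The procedure was tested on simulated data. Python 3.11.15, numpy 2.4.6, pandas 2.3.3, statsmodels 0.14.6 and matplotlib 3.10.9 were used.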

Additional observations from a re-analysis of the deposited data

How the results depend on the processing

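Over the alternatives 6 values or counts moved by more than 0.133 (log2), or 1.5 times for counts, and 0 of the differences past 1.5-fold changed sign. Changing the floor cannot move the difference of a single gene, averaging rows cannot move a gene with 1 row, and centring shifts every gene alike. Averaging the rows of each gene, CD44 moved from -0.016 to -0.54 and the median of the measured markers from -0.095 to -0.25. Without a floor all 9 markers counted and their median was 0.050, of opposite sign, beside 0.060 over all 22413 genes, and the median of the leukocyte markers was 0.21 in place of 0.48. Taking list means for medians, the endothelial markers stood at -0.29 in place of -0.079. At the lower fold threshold tried, 2 markers, SOX4 and CD24, were lower, in place of 0 at 1.5-fold. The share of all measured genes past that threshold was not taken, so this count has no comparison. Differences of this size were common, as 10.7% of measured genes had a larger absolute difference than SOX4 and 18.0% a larger one than CD24. CD24 also counted through its control signal alone. Centring the arrays moved the median over measured genes to -0.086 and the numbers at 1.5-fold from 121 higher and 174 lower to 76 higher and 334 lower, and without a floor they were 261 and 281. Raising the floor to the 75th percentile left 5 markers measured, and no fibroblast, endothelial or other SOX gene was left for a median. No paired analysis was possible because each group has 1 array, and no replicate could be left out. The cause of these shifts was not tested.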

Other observations

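Some partners of the markers fell below the floor and so outside every count above; they were chosen after their values were seen. TSPAN8, a tetraspanin that forms membrane complexes with EPCAM and CD44, had log2 signals of 5.24 in control cells and 4.40 after knockdown, a difference of -0.84. ALDH1L2, a mitochondrial folate enzyme of the aldehyde dehydrogenase family, had 5.63 and 5.19. SOX7, a factor of blood vessels, had 4.32 and 4.82. ALB, the plasma protein albumin, had 4.35 and 3.76. Without replicates or detection calls, no reliable size can be given to differences at this signal.

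In 4359 of the 70523 rows, or 6.18%, the 2 arrays held the same value to every deposited digit. This was so for 190 of the 11207 measured genes, or 1.70%, and for 0 of the 10 rows of the markers. AFP was among the genes concerned, at 2.56 in both arrays, as was the aminopeptidase gene ENPEP, at 2.60. How the deposited values came to be equal was not tested.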
